A study of Mus musculus with 12 samples.

Results

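The genes described here are 7 keratins of basal and activated keratinocytes, *Krt5*, *Krt14*, *Krt15*, *Krt6a*, *Krt6b*, *Krt16* and *Krt17*, taken by gene name from a count table of 21947 loci. A locus counted when its name was that of a single gene or joined genes with a plus sign, and all 7 keratins have a locus of their own, among 45 loci that carry the name of 1 keratin gene alone. RNA-Seq was done on primary keratinocytes of neonatal BALB/c mice, which were grown at 0.05 mM calcium and brought to 0.12 mM to differentiate. The same harvest point is recorded for all cultures, 48 hours after a transfection that was done 24 hours after seeding. The cultures had received 75 pmol of an siRNA pool against *Sbsn* (siSbsn), the gene of the suprabasal protein suprabasin, or 75 pmol of a non-targeting pool (siControl), or no siRNA. The paper does not mention cultures without siRNA, so it does not say whether these received transfection reagent. The comparison asks which genes change when *Sbsn* is knocked down in differentiating keratinocytes. Batch 1 held 2 libraries each of no siRNA, siControl and siSbsn, and batch 2 held 3 siControl and 3 siSbsn libraries, so that no siRNA was measured in batch 1 only. What a batch stands for is not given in the labels, and neither is whether replicates came from separate animals, so p-values measure the spread between these libraries.

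Keratins form the intermediate filaments of epithelial cells, and each filament pairs a type I with a type II keratin. In the basal layer of the epidermis the pair is type I *Krt14* with type II *Krt5*, and *Krt15* is a further type I keratin of basal cells and of the hair follicle bulge. After wounding and in culture, keratinocytes raise the type II keratins *Krt6a* and *Krt6b* and the type I keratins *Krt16* and *Krt17*, which are therefore called stress or activation keratins. Cells that leave the basal layer normally replace *Krt5* and *Krt14* with *Krt1* and *Krt10*.

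The 7 genes lie in both keratin clusters, all on the minus strand (mm10). The type II genes are on chromosome 15, with *Krt6b* at chr15:101676023-101680289, *Krt6a* at chr15:101689928-101694305 and *Krt5* at chr15:101707070-101712891, each with 9 exons. The type I genes are on chromosome 11, with *Krt15* at chr11:100131759-100135949, *Krt14* at chr11:100203162-100207510, *Krt16* at chr11:100246091-100248902 and *Krt17* at chr11:100256215-100261029, each with 8 exons. Their coding sequences run from 1299 bases in *Krt17* to 1740 bases in *Krt5*.

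Since the authors counted reads that align to 1 place only, the likeness between these genes sets how well they were counted. The coding sequences of *Krt6a* and *Krt6b* matched at 97.8% of 1659 aligned bases (1622 bases, gaps left out), against 81% between *Krt5* and *Krt6a*. Of all 50-base windows of the longest transcript, 49.5% in *Krt6a* and 50.1% in *Krt6b* also occurred in transcripts of other genes. The stretch of 90 bases in exon 4 where the coding sequences of *Krt6a* (chr15:101692484-101692573, minus strand) and *Krt6b* (chr15:101678303-101678392, minus strand) differ most is shown because reads over it can be told apart. It is read 5′ to 3′ from the GENCODE M21 transcripts, with the 12 differing bases in capitals.
Krt6a: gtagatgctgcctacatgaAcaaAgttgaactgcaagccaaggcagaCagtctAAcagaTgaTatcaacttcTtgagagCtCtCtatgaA
Krt6b: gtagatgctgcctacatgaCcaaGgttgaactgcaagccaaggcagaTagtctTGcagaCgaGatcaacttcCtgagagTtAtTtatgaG

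These 12 differences stand among 37 in the whole aligned coding sequence. In exon 1 the same genes are identical over 280 bases (coding bases 34 to 313), and a read that lies wholly inside that run cannot be placed. The counts of *Krt6a* and *Krt6b* therefore come from the other parts of their transcripts, and their levels are understated by an amount that depends on the read length, which the sources used here do not give.

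Among the type I genes, *Krt16* shared 37.6% of its 50-base windows with transcripts of other genes, mainly with *Gm11597* (382 windows) and *Krt14* (188 windows). *Krt14* shared 14.4%, *Krt5* 8.52%, *Krt17* 3.99% and *Krt15* 0.666%. The longest coding stretch that *Krt14* (chr11:100207017-100207150, minus strand, exon 1) and *Krt16* (chr11:100248476-100248609, minus strand, exon 1) have in common is 134 bases, shown because a basal and a stress keratin cannot be told apart in it.
Krt14 and Krt16: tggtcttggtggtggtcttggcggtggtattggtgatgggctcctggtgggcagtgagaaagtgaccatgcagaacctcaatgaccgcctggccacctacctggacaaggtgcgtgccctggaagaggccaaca

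In the 90 bases of exon 5 where they differ most, *Krt14* (chr11:100204445-100204534, minus strand) and *Krt16* (chr11:100247123-100247212, minus strand) have 31 differing bases, again in capitals.
Krt14: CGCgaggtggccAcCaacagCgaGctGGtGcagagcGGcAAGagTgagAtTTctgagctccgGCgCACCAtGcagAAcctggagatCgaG
Krt16: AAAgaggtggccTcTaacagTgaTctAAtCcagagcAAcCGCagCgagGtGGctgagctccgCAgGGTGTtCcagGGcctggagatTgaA

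Over the whole coding sequence *Krt14* and *Krt16* matched at 86% of aligned bases, *Krt14* and *Krt17* at 83.8%, and *Krt15* with the other type I members at 72.3% to 73.7%.

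Total counts per library ranged from 27934836 to 49553923, and every member except *Krt15* had at least 2218 reads in each library. Levels are counts per 1000000 of the TMM-scaled library size (CPM). The library labelled siSbsn batch 1 replicate 1 went against its label, with *Sbsn* at 1965 CPM, the highest of the 12 libraries. Its partner siSbsn batch 1 replicate 2 had 696 CPM, siControl batch 1 had 1189 and 1356 CPM, and no siRNA had 1697 and 1231 CPM. In batch 2, *Sbsn* stood at 371, 332 and 459 CPM with siControl and at 124, 125 and 121 CPM with siSbsn, a log2-fold change of -1.64 (SE 0.101, edgeR adjusted p = 0.00056). A second library, siControl batch 1 replicate 1, stood apart by having the highest level of the 12 for each member except *Krt15*. Results are therefore given with and without these libraries where that matters. The cultures carried keratinocyte markers throughout, with *Trp63* at 109 to 236 CPM beside *Krt5* and *Krt14*.

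The members took a large part of all reads. Together they made up 5.05% to 10.8% of the total count in batch 1 (median 6.57%, 6 libraries) and 4.25% to 5.73% in batch 2 (median 4.74%, 6 libraries). They also held 99.2% to 99.7% of the reads on the 45 keratin loci. *Krt17* had the highest CPM of all loci in 12 of 12 libraries and *Krt14* was second in each of them, while *Krt5* was ranked 3 to 4, *Krt6a* 3 to 5 and *Krt16* 5 to 22. *Krt6b* ranked between 348 and 3736, and *Krt15* between 10665 and 12610.

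**Figure D1:**
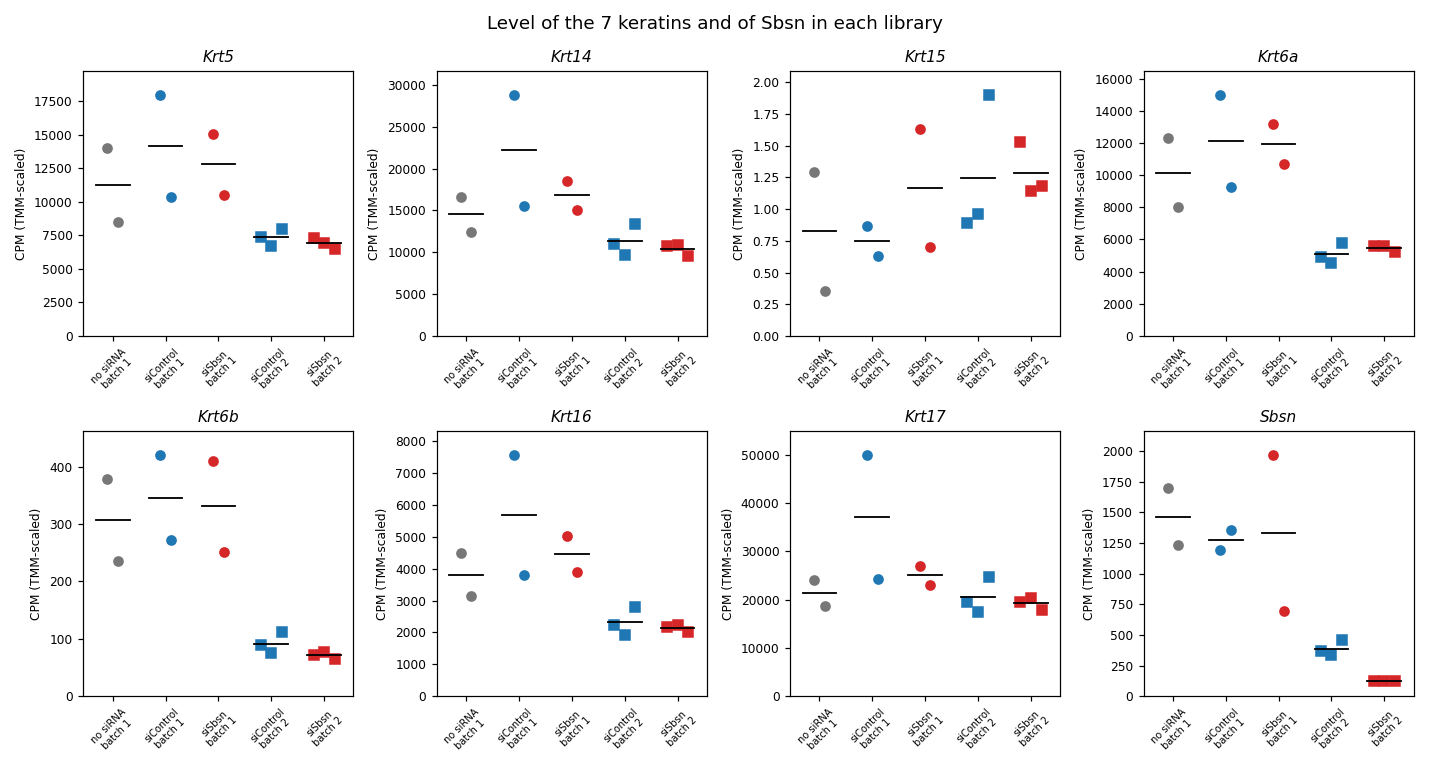
Level of each keratin and of *Sbsn* in CPM (TMM-scaled, linear axis from 0, own scale in each panel) for the 12 libraries by treatment and batch. Each point is 1 library and the bar is the group mean. All members except *Krt15* and *Krt17* are lower in every batch 2 library than in every siRNA library of batch 1. The share of all loci without such overlap was not counted. By the different measure of an edgeR call, 21.6% of all loci tested were lower in batch 2.

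*Krt5*, the basal type II keratin, had 13992 and 8520 CPM without siRNA. It had 17986 and 10364 CPM with siControl in batch 1 and 15074 and 10538 CPM with siSbsn in batch 1. In batch 2 it stood at 7355, 6721 and 8003 CPM with siControl and at 7284, 6930 and 6489 CPM with siSbsn. The batches did not overlap, whereas the treatments did in both batches.

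*Krt14*, its type I partner, had 16661 and 12426 CPM without siRNA. With siControl in batch 1 it reached 28816 and 15544 CPM, and with siSbsn 18504 and 15083 CPM. Batch 2 gave 11016, 9634 and 13374 CPM with siControl and 10715, 10819 and 9607 CPM with siSbsn. The siRNA libraries of the batches did not overlap, but no siRNA replicate 2 lay below the highest library of batch 2.

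*Krt15* was close to absent. Its raw counts were 55 and 13 without siRNA, 24 and 22 with siControl in batch 1 and 53 and 29 with siSbsn in batch 1. In batch 2 they were 34, 38 and 59 with siControl and 79, 33 and 45 with siSbsn, which corresponds to 0.358 to 1.9 CPM over the 12 libraries. In CPM, both siControl libraries of batch 1 lay below every library of batch 2, and the other groups overlapped. A further 43 reads over the 12 libraries, 8.88% of its own 484, fell on 3 loci that join its name with other genes and were left out.

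*Krt6a*, the more abundant of both stress type II keratins, had 12329 and 8003 CPM without siRNA. It had 14994 and 9256 CPM with siControl in batch 1 and 13187 and 10707 CPM with siSbsn in batch 1. In batch 2 the values were 4919, 4530 and 5812 CPM with siControl and 5608, 5585 and 5204 CPM with siSbsn. Every batch 2 library was below every batch 1 library.

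*Krt6b* was far lower, with 379 and 235 CPM without siRNA. Batch 1 gave 420 and 272 CPM with siControl and 410 and 252 CPM with siSbsn. Batch 2 gave 89.4, 74.9 and 111 CPM with siControl and 72.1, 76.6 and 64.6 CPM with siSbsn. The gap between the batches was the widest of the 7 genes, and within batch 2 the treatments met only at the lowest siControl and the highest siSbsn library.

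*Krt16*, the type I keratin that pairs with the *Krt6* keratins, had 4479 and 3151 CPM without siRNA. It had 7560 and 3801 CPM with siControl and 5032 and 3890 CPM with siSbsn in batch 1. In batch 2 it had 2242, 1915 and 2782 CPM with siControl and 2155, 2224 and 2025 CPM with siSbsn. The batches did not overlap.

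*Krt17*, a type I keratin of activated and appendage keratinocytes, had 24087 and 18769 CPM without siRNA. With siControl in batch 1 it had 49904 and 24246 CPM, the widest difference between replicates among the abundant members, and with siSbsn 26914 and 23075 CPM. Batch 2 gave 19406, 17416 and 24618 CPM with siControl and 19589, 20277 and 17777 CPM with siSbsn. Here the batches overlapped.

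In batch 1, each member was higher in replicate 1 than in replicate 2 of the same condition, in 21 of 21 member and condition pairs. The *Krt17* ratio of replicate 1 to replicate 2 was 1.28 without siRNA, 2.06 with siControl and 1.17 with siSbsn. Over 13562 loci, replicate 1 was higher for 49.8%, 49.6% and 50.7% in the same order. The members share their libraries, so the 21 pairs are not independent.

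Levels of different genes were compared per kilobase of the longest annotated transcript. In 12 of 12 libraries the order was *Krt17*, *Krt14*, *Krt5*, *Krt6a*, *Krt16*, *Krt6b*, *Krt15*. The mean levels were 15371 ± 5649 CPM per kilobase for *Krt17* (SD, n = 12), 8451 ± 3176 for *Krt14*, 4523 ± 1730 for *Krt5*, 3663 ± 1609 for *Krt6a* and 2197 ± 1061 for *Krt16*. *Krt6b* followed at 91.6 ± 63.1 and *Krt15* at 0.641 ± 0.264 CPM per kilobase. Over libraries the ranges of neighbours from *Krt17* down to *Krt16* overlapped, and within a library *Krt5* exceeded *Krt6a* by as little as 1.02 times per kilobase. *Krt16* exceeded *Krt6b* by 16.9 to 44.8 times, with no overlap. Type I members summed to 2.36 to 4.09 times the type II members per kilobase. The shared windows above bear on the levels of *Krt6a*, *Krt6b* and *Krt16* in particular.

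Over both batches, no difference between siSbsn and siControl in the 7 keratins exceeded the spread between libraries. The same fit did not call *Sbsn* itself (log2-fold change -0.96, edgeR adjusted p = 0.256), and within batch 1 *Sbsn* was at 0.029. The pooled values therefore include a siSbsn library whose *Sbsn* level was not lowered, and they are a weak measure of a knockdown. With batch in the model, the log2-fold change of siSbsn against siControl lay between -0.28 in *Krt17* and 0.28 in *Krt15*, and 5 of 7 were negative. Among the basal keratins it was -0.11 for *Krt5* (95% confidence interval -0.45 to 0.23, edgeR adjusted p = 0.66), -0.23 for *Krt14* (-0.60 to 0.14, adjusted p = 0.391) and 0.28 for *Krt15* (-0.37 to 0.94, adjusted p = 0.54). The intervals of *Krt5* and *Krt6a* lie inside the call threshold of 0.5 on the log2 scale, and those of the others do not.

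For the stress keratins the log2-fold change was 0.061 for *Krt6a* (-0.24 to 0.36, edgeR adjusted p = 0.785), -0.24 for *Krt6b* (-0.62 to 0.14, adjusted p = 0.38), -0.20 for *Krt16* (-0.60 to 0.19, adjusted p = 0.473) and -0.28 for *Krt17* (-0.70 to 0.15, adjusted p = 0.377). None of the 7 was called (absolute log2-fold change over 0.5 and Benjamini-Hochberg adjusted p under 0.05 over all loci), and 0% of the 13211 loci tested were called by edgeR. Before adjustment 2501 loci, none of them a member, had a p under 0.05. DESeq2 called 98 loci, again without a member. In two-sided exact permutation tests within batches the p-values ran from 0.217 for *Krt6b* to 0.617 for *Krt6a* (5 against 5 libraries, 120 arrangements, smallest possible p 0.0167).

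Without siControl batch 1 replicate 1 the log2-fold changes of *Krt14*, *Krt16* and *Krt17* were -0.051, -0.0064 and -0.046, and that of *Krt5* turned to 0.031. Without the library labelled siSbsn batch 1 replicate 1, *Krt6b* was at -0.39, *Krt5* at -0.19 and *Krt15* at 0.044. In that setting edgeR called 0 of 7 members and 0% of 13344 loci.

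**Figure D2:**
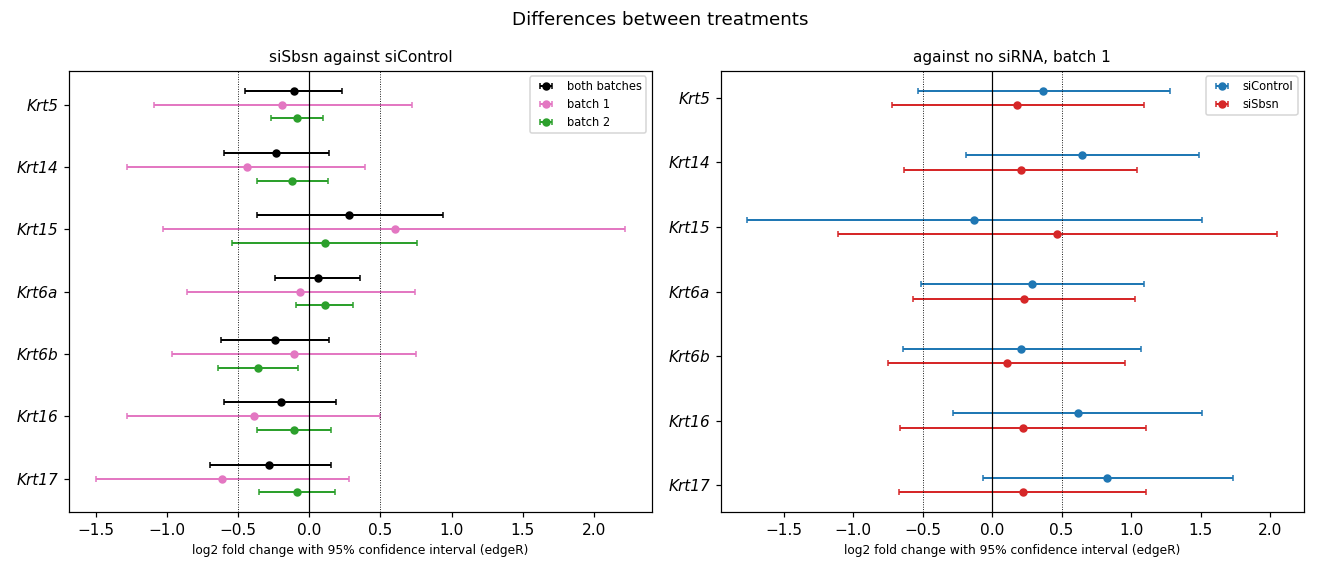
Log2-fold changes of the 7 keratins (points) with 95% confidence intervals (bars) from edgeR, for siSbsn against siControl over both batches and within each batch (left) and for siControl and siSbsn against no siRNA in batch 1 (right). Dotted lines mark the call threshold of 0.5 either way; the only interval that leaves out 0 is that of *Krt6b* in batch 2, from -0.64 to -0.08.

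Within batch 2, where the *Sbsn* level fell in all 3 siSbsn libraries, *Krt6b* had the largest difference of the 7. Its log2-fold change was -0.36 (95% confidence interval -0.64 to -0.08), with an edgeR p of 0.0172 before and 0.458 after adjustment over all loci. Left-out libraries moved it between -0.22 and -0.48 without a call. The others lay between -0.12 in *Krt14* and 0.11 in both *Krt15* and *Krt6a*. Of 12924 loci, edgeR called 0.00774%, which is *Sbsn* alone, and none of the 7 keratins.

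In batch 1 the log2-fold changes of siSbsn against siControl were -0.61 for *Krt17* (-1.50 to 0.28), -0.44 for *Krt14*, -0.39 for *Krt16*, -0.19 for *Krt5*, -0.11 for *Krt6b*, -0.062 for *Krt6a* and 0.60 for *Krt15*. With 2 libraries a group the intervals were wide, and edgeR called 0 of 7 members and 0% of 13176 loci (2077 loci at an unadjusted p under 0.05, none of them a member; 174 called by DESeq2, none a member). The value of *Krt15* turned to -0.12 without the library labelled siSbsn batch 1 replicate 1, and *Krt5*, *Krt6a* and *Krt6b* each changed sign under 2 left-out libraries. Those of *Krt14*, *Krt16* and *Krt17* rested on siControl batch 1 replicate 1. Without it *Krt17* was at 0.034 and *Krt14* at 0.10, and without replicate 2 instead *Krt17* was at -1.05 and called (edgeR adjusted p = 0.0425), as were 19.3% of 13558 loci. For the difference between the batches in the effect of siSbsn, edgeR called 0 of 7 members and 0% of 13419 loci (1991 at an unadjusted p under 0.05, none of them a member; 205 called by DESeq2, none a member). The interaction ranged from -0.54 in *Krt15* to 0.50 in *Krt17* on the log2 scale. Without siControl batch 1 replicate 2 the interactions of *Krt14* (0.66) and *Krt17* (0.92) were called, together with 31.6% of 13808 loci.

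In batch 1 the siControl and siSbsn libraries were also set against the libraries without siRNA. The comparison of siControl with no siRNA uses the siControl libraries that also stand in siSbsn against siControl, and both comparisons here share the libraries without siRNA, so they are not independent. The log2-fold change of siControl against no siRNA was 0.83 for *Krt17* (95% confidence interval -0.062 to 1.73, edgeR adjusted p = 0.311), and both siControl libraries were above both libraries without siRNA. It was 0.65 for *Krt14*, 0.62 for *Krt16*, 0.37 for *Krt5*, 0.29 for *Krt6a*, 0.21 for *Krt6b* and -0.13 for *Krt15*. edgeR called 0 of 7 members and 0% of 13176 loci. Before adjustment 2116 loci had a p under 0.05, none of them a member, and the 26 loci that DESeq2 called held no member either.

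Without no siRNA batch 1 replicate 1, *Krt5* was at 0.77, *Krt6a* at 0.64, *Krt6b* at 0.59 and *Krt15* at 1.08. For *Krt14*, *Krt16* and *Krt17*, once more 1 siControl library carried most of the size. Without siControl batch 1 replicate 1, *Krt17* was at 0.19, *Krt5* at -0.11 and *Krt6a* at -0.13. Without replicate 2, *Krt17* was at 1.28 and *Krt14* at 1.04, and both were called, as were 23.7% of 13558 loci. *Krt17* was also called without the filter on low counts (0.82, edgeR adjusted p = 0.027), where 4.3% of 18973 loci were.

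For siSbsn against no siRNA the log2-fold changes were 0.18 for *Krt5*, 0.21 for *Krt14*, 0.47 for *Krt15*, 0.23 for *Krt6a*, 0.11 for *Krt6b* and 0.22 for both *Krt16* and *Krt17*. All 7 had an edgeR adjusted p of 1, and 0% of 13176 loci were called. DESeq2 called 0 loci as well, and 23 loci, none of them a member, had an edgeR p under 0.05 before adjustment.

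The batches differed in 6 of the 7 keratins, which were lower in batch 2. Over the 10 siRNA libraries, with treatment in the model, *Krt6b* was 4.21-fold lower (log2-fold change -2.07, 95% confidence interval -2.45 to -1.69, edgeR adjusted p = 1.11e-05). *Krt6a* was 2.29-fold lower (-1.2, -1.50 to -0.89, edgeR adjusted p = 8.48e-05) and *Krt16* 2.28-fold lower (-1.19, -1.58 to -0.79, edgeR adjusted p = 0.000453). The basal pair was lower by 1.9-fold in *Krt5* (-0.92, -1.27 to -0.58, edgeR adjusted p = 0.000793) and by 1.79-fold in *Krt14* (-0.84, -1.21 to -0.46, edgeR adjusted p = 0.00227). *Krt17* was 1.55-fold lower (-0.63, -1.06 to -0.20, edgeR adjusted p = 0.02). *Krt15* did not pass the test, with a log2-fold change of 0.43 (-0.25 to 1.1, edgeR adjusted p = 0.258).

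Of all 13211 loci tested, 21.6% were called lower and 16.4% called higher in batch 2, and the count of 6 lower among 7 has to be read beside that share of 21.6%. The call of *Krt17* was lost without siControl batch 1 replicate 1 (-0.32) and with the trend of counts on gene length removed (-0.31). *Krt15* was called higher without the library labelled siSbsn batch 1 replicate 1 (0.81, edgeR adjusted p = 0.0436), where 14.1% of 13344 loci were. The other 5 members were called in every alternative, and without siControl batch 1 replicate 1 they lay between -0.59 in *Krt14* and -1.97 in *Krt6b*. What the batches differ in is not given, so culture, handling and sequencing cannot be told apart. In bulk cultures, fewer cells of a type and less RNA per cell cannot be told apart either.

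**Figure D3:**
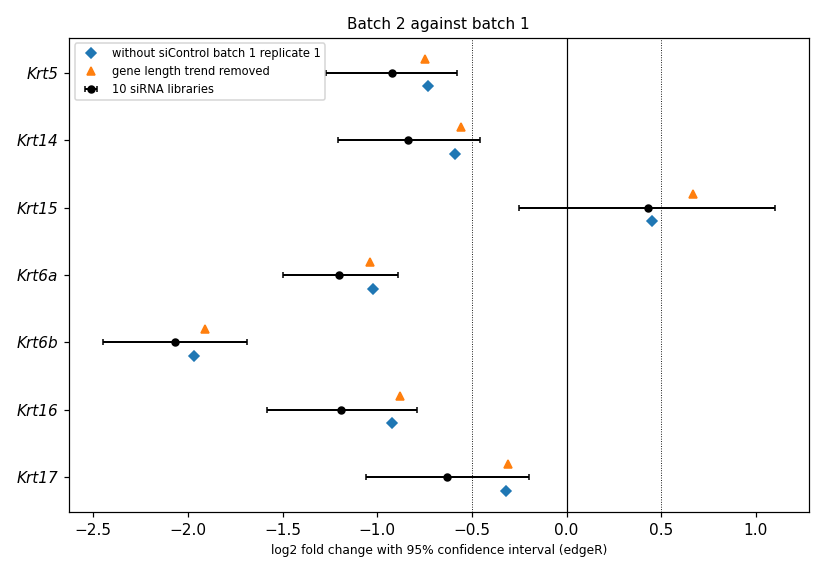
Log2-fold change of the 7 keratins in batch 2 against batch 1 over the 10 siRNA libraries (black points, bars are 95% confidence intervals from edgeR). Diamonds leave out siControl batch 1 replicate 1 and triangles remove the trend of counts on gene length, both without intervals; *Krt6b* is farthest from 0 and *Krt17* crosses the dotted threshold at -0.5 in both alternatives.

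Genes that share a function with these keratins did not all move with them between the batches. The gene lists used here and below were chosen with earlier results of these data known, so their counts are a description. Of all loci, 21.6% were called lower and 16.4% higher. Of 12 other genes of basal keratinocytes (integrins, laminins, *Trp63*, *Col17a1* and others), 1 was called higher and 0 lower in batch 2, with a median log2-fold change of 0.25 against -0.021 over all loci. The one called was *Dst*, which encodes a plakin linker of hemidesmosomes (1.2), and it was not called with the length trend removed (0.16). Of 16 tested genes of wounding and activation, 13 were called lower and 0 higher, with a median of -1.35. Among them were *Defb14*, a beta-defensin (-2.81, edgeR adjusted p = 1.22e-06), *Mmp9*, a matrix metalloprotease (-2.43, edgeR adjusted p = 1.78e-06), and *S100a9*, a calcium-binding alarmin (-2.57, edgeR adjusted p = 1.1e-05).

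All 4 tested keratins of simple epithelia were called lower, including *Krt8* (-2.49), *Krt18* (-1.73) and *Krt7* (-1.78). Of 5 tested keratins of suprabasal and differentiating cells, 3 were called lower, *Krt78* (-2), *Krt80* (-0.82) and *Krt77* (-2.7), and 1 higher. The suprabasal pair itself was low in all libraries, with *Krt1* at 26.4 to 335 CPM and *Krt10* at 15.9 to 73.8 CPM. Of 10 genes whose proteins link keratin filaments to junctions and the envelope, 4 were called lower, among them *Ppl* (-1.02) and *Evpl* (-0.69), and 3 higher.

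Some markers of other cell types were also called between the batches, to be read beside 21.6% of all loci called lower and 16.4% called higher. The 6 fibroblast markers summed to 413 to 1163 CPM in batch 1 and 358 to 420 CPM in batch 2. Of them 1 was called lower (*Col1a1*, -0.75) and 2 higher (*Dcn*, 1.17, and *Lum*, 0.51). *Col1a1*, the most abundant of the 6, had 261 to 902 CPM over the 12 libraries. *Dcn* had 3.17 to 10.4 CPM and *Lum* 0.37 to 0.902 CPM. The 5 melanocyte markers summed to 684 to 852 CPM in batch 1 and 964 to 1016 CPM in batch 2, and 3 were called higher. The 5 leukocyte markers summed to 2.51 to 9.3 CPM in batch 1 and 1.52 to 2.37 CPM in batch 2, with both tested markers called lower and *Cd207* at 0 in 12 of 12 libraries. The 3 endothelial markers summed to 0.937 to 2.54 CPM in batch 1 and 1.5 to 2.3 CPM in batch 2, and neither of the pair tested was called. Their part in the lower keratin levels was not tested.

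In siSbsn against siControl over both batches, edgeR called no gene of these lists. For the wound and activation genes the median was -0.33 on the log2 scale, with 13 of 16 negative, against a median of 0.0066 and 49.2% negative over all loci. *Plaur*, the urokinase receptor, was at -0.64 and *Fosl1*, an AP-1 subunit, at -0.60, both with an edgeR adjusted p of 0.256, and DESeq2 called both. In batch 1, where *Sbsn* was not lowered (0.029), *Plaur* was at -0.94 and *Fosl1* at -1.14. *Plaur* was at -0.45 in batch 2, and the interaction of *Fosl1* was 0.83. For siControl against no siRNA in batch 1, *Fosl1* was at 0.86. edgeR called none of these values. Of the 10 linkers 1 was negative, with a median of 0.34, and *Dsp*, which encodes desmoplakin, was at 0.66 (edgeR adjusted p = 0.256, called by DESeq2). *Ppl*, which encodes periplakin, was at 0.44 with the same adjusted p. The other basal genes had a median of 0.15 with 2 of 12 negative, and the suprabasal keratins 0.25 with 1 of 5 negative. Within batches the suprabasal keratins had a median of 1.05 in batch 1 (1 of 5 negative) and of -0.16 in batch 2 (2 of 4 negative). *Krt1* was at 2.35 in batch 1 (edgeR adjusted p = 0.323) and at -0.79 in batch 2 (edgeR adjusted p = 0.318), and the interaction of -3.17 was not called (edgeR adjusted p = 0.272). The batch 1 values include the library labelled siSbsn batch 1 replicate 1, whose *Sbsn* level was not lowered. Without that library, *Krt77* over both batches moved from 1.08 to 0.22. *Krt10* was at -0.37 in batch 2 (edgeR adjusted p = 0.319). Before adjustment over all loci the edgeR p in batch 2 was 0.000269 for *Krt1* and 0.000459 for *Krt10*.

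The linkers summed to 13443 to 16762 CPM in the siControl libraries and to 18415 to 22171 CPM in the siSbsn libraries, with no overlap. The 18434 to 20921 CPM without siRNA lay inside the siSbsn range. The siSbsn libraries include batch 1 replicate 1 with its high *Sbsn* level. How often other loci or lists separate in this way was not counted. The largest terms of the sum were *Dsp* (2821 to 8857 CPM), *Jup* (2557 to 5089 CPM) and *Pkp1* (2405 to 4995 CPM). With the length trend removed, *Dsp* was at 0.29, *Ppl* at 0.22 and *Dst* at -0.19, from 0.46. The 6 fibroblast markers had a median of 0.37 in the same comparison, with 1 negative and none called, *Col3a1* at 0.6 and *Pdgfra* at 0.55 (both with an edgeR adjusted p of 0.259). They summed to 373 to 426 CPM in the siControl and 358 to 1163 CPM in the siSbsn libraries, and their part in the linker values was not tested. All 4 simple keratins were negative, with a median of -0.55, and *Krt18* (-0.68) was called by DESeq2 but not by edgeR. *Krt18* was at -0.97 in batch 1 and at -0.51 in batch 2. It was at 0.89 for siControl against no siRNA in batch 1, and edgeR called none of these values.

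Ratios between members within a library do not depend on the library size and are given as a description. How often ratios of other loci separate the groups was not counted, and ratios that share *Krt6a* are not independent. *Krt6a*/*Krt6b* was 32.6 and 34 without siRNA, 35.7 and 34 with siControl and 32.2 and 42.6 with siSbsn in batch 1. In batch 2 it was 55, 60.5 and 52.2 with siControl and 77.8, 72.9 and 80.5 with siSbsn. The ratio was thus higher in every library of batch 2 than in batch 1, and within batch 2 higher in every siSbsn than in every siControl library, while in batch 1 the treatments overlapped. Transcript lengths of the pair are near equal (2278 and 2235 bases), and about as many windows of each are shared.

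*Krt6a*/*Krt16* was 1.98 and 2.44 with siControl and 2.62 and 2.75 with siSbsn in batch 1. In batch 2 it was 2.19, 2.36 and 2.09 with siControl and 2.60, 2.51 and 2.57 with siSbsn. All 5 siSbsn libraries, among them batch 1 replicate 1 with its high *Sbsn* level, were above all 5 siControl libraries. The libraries without siRNA (2.75 and 2.54) were within the siSbsn range. *Krt6a* has the longer transcript (2278 against 1565 bases), and after removal of each library's trend on length the log2-fold changes of siSbsn against siControl became 0.18 for *Krt6a* and 0.029 for *Krt16*.

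*Krt6a*/*Krt17* was 0.3 to 0.512 in batch 1 and 0.236 to 0.293 in batch 2. Within each batch it was higher in the siSbsn libraries (0.490 and 0.464, then 0.286, 0.275 and 0.293) than in the siControl libraries (0.3 and 0.382, then 0.253, 0.260 and 0.236). The libraries without siRNA (0.512 and 0.426) lay on either side of both siSbsn libraries of batch 1 and above both siControl libraries. The value of 0.490 is that of siSbsn batch 1 replicate 1, with its high *Sbsn* level. *Krt17* too has a shorter transcript (1551 bases). *Krt17*/*Krt14* was 1.45 to 1.73 in batch 1 and 1.76 to 1.87 in batch 2, with no overlap. The basal pair *Krt5*/*Krt14* ranged from 0.598 to 0.84, and the batches overlapped.

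**Figure D4:**
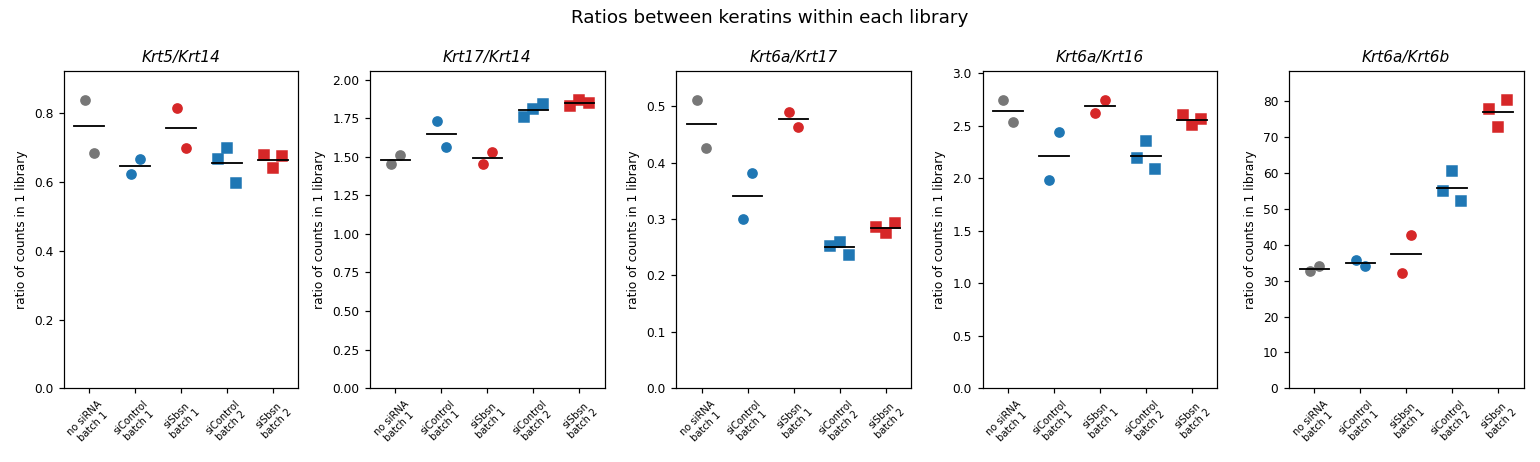
Ratios of the counts of keratin pairs within each library (linear axes from 0, 1 point per library, bars are group means) by treatment and batch. *Krt6a*/*Krt6b* is 32.2 to 42.6 in batch 1, 52.2 to 60.5 with siControl and 72.9 to 80.5 with siSbsn in batch 2, and *Krt6a*/*Krt16* is higher in each siSbsn library than in each siControl library.

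Profiles over the 12 libraries were compared by the root mean square difference of log2(CPM + 0.5), each gene centred on its mean. Among the members the closest were *Krt5* and *Krt14* (0.135), the basal pair, followed by *Krt14* and *Krt17* (0.141) and *Krt6a* and *Krt16* (0.146). The near-identical *Krt6a* and *Krt6b* were farther apart (0.49). Among 6499 other loci of 1 gene with a mean of at least 10 CPM, the nearest to *Krt5* were *Ptov1* (0.0754) and *Ostf1* (0.0806), to *Krt14* *Apoa1bp* (0.0568) and *Aes* (0.0607), and to *Krt17* *Dynlrb1* (0.0517) and *Ndufb10* (0.0523). To *Krt6a* they were *Rab25* (0.0939) and *Ctsd* (0.0954), and to *Krt16* *Abhd17a* (0.0824) and *Rab24* (0.0833). *Krt6b* was nearest to *Sprr1b* (0.145), which encodes a small proline-rich protein of the cornified envelope. *Krt15* had no close neighbour, the nearest being *Rab15* (0.257) and *Ak4* (0.26).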

How the data were processed

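RNA-Seq was measured in 12 libraries of mouse primary keratinocytes, grouped by the treatment and batch of the labels. The authors aligned reads with STAR to mm10 at default settings, kept unique alignments, counted them on the UCSC KnownGene annotation and deposited the raw counts per locus as whole numbers, not normalized. Overlapping genes form 1 locus in their table. Unique counting lowers the counts of near-identical keratins, and any use of strand is not stated. Per the labels, DESeq2 was also used.

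Counts were scaled by TMM, filtered by filterByExpr, and tested by the quasi-likelihood test of edgeR 4.0.16 (limma 3.58.1, R 4.3.3) with Benjamini-Hochberg adjustment over all loci. Calls needed an absolute log2-fold change over 0.5 and an adjusted p under 0.05, as in the study's Methods. The SE is the absolute log2-fold change over the square root of the F statistic. CPM used the summed counts of 13562 loci times the TMM factor. Total counts per library were 27934836 to 49553923. Within-batch fits of batch 1 used all 6 of its libraries. DESeq2 1.42.0, RLE factors, no filter, removal of the trend on transcript length (lowess span 0.3; 95% of the loci kept had a length), a replicate block, other sets of libraries, and leaving out each library were alternatives, and edgeR was tested on simulated data. Gene lengths and coding sequences came from GENCODE M21 (GRCm38), aligned with Biopython 1.88; starts are printed after adding 1. Replicates of a group differed by 4.54 to 202 times counting noise (chi-square per degree of freedom), so none was a copy.

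The members and gene lists were chosen with earlier results of these data known. Named are the 7 keratins, *Sbsn*, the 2 nearest profiles of each member (pseudocount 0.5 CPM; 1 is not reported here), and of each list up to 3 called genes by smallest adjusted p, otherwise the 2 with the smallest p. *Trp63*, *Krt1*, *Krt10* and the leukocyte marker at 0 were named after their values were seen. Of the 18 wound and activation genes 17 were found, and the other was not used here. The 1828 loci whose names are joined by a comma were left out of the lists.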

Additional observations from a re-analysis of the deposited data

How the results depend on the processing

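The levels of the members were within the replicate spread of the reported values when RLE factors were used. Of 301 log2-fold changes of the members under the alternatives other than left-out libraries, 287 kept direction and side of the threshold, and of 378 under left-out libraries 331 did. With the length trend removed, siSbsn against siControl changed sign over both batches for Krt5 (0.024), Krt16 (0.029) and *Dst* (-0.19), in batch 1 for Krt5 (0.06), Krt6a (0.17), Krt6b (0.12) and Krt16 (0.052), and in batch 2 for Krt17 (0.013). It also changed the sign of siControl against no siRNA for Krt6b (-0.044) and of the interaction for Krt5 (-0.10), Krt6a (-0.011) and Krt16 (-0.07). None of these values was called, and the cause was not tested.

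The replicate numbers of batch 1 are not said to pair cultures. Over loci, the differences between number 1 and number 2 correlated at 0.379, 0.457 and 0.805 between conditions, with only 2 numbers. With the replicate block, loci at an unadjusted p under 0.05 rose from 2501 to 4177 for siSbsn against siControl over both batches, calls stayed at 0 there, in batch 1 and against no siRNA, and the interaction had 73 calls. Krt15 turned to 0.045 for siControl against no siRNA and *Sbsn* to -0.13 for siSbsn against siControl in batch 1. No call of a member changed with the block.

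Counts of called loci moved as follows. DESeq2 called 98 for siSbsn against siControl over both batches (edgeR 0), 174 in batch 1 (0), 10 in batch 2 (1), 26 for siControl against no siRNA (0) and 205 for the interaction (0). Without the filter on low counts the calls were 851 in batch 1, 9 in batch 2, 815 for siControl against no siRNA and 17 for the interaction. With all 12 libraries in 1 fit they were 1294 in batch 1 and 0 in batch 2, and with the length trend removed 7 in batch 2. Left-out libraries gave 0 to 2618 calls for siSbsn against siControl in batch 1, 1 to 10 in batch 2, 0 to 3213 for siControl against no siRNA and 0 to 4362 for the interaction, the highest without siControl batch 2 replicate 3 in batch 2 and without siControl batch 1 replicate 2 in the others. Where a group was left with 1 library, it was assumed to vary like the others.

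Leaving out single libraries also turned the direction of uncalled log2-fold changes, given as lowest and highest. For siSbsn against siControl over both batches these were -0.21 to 0.031 in Krt5 and -0.02 to 0.19 in Krt6a. In batch 1 they were -0.55 to 0.30 in Krt5, -0.84 to 0.10 in Krt14, -0.12 to 1.09 in Krt15, -0.39 to 0.36 in Krt6a, -0.49 to 0.27 in Krt6b, -0.82 to 0.22 in Krt16, -1.05 to 0.034 in Krt17 and -0.90 to 0.59 in *Sbsn*. In batch 2 they were -0.21 to 0.00054 in Krt14, -0.077 to 0.50 in Krt15, -0.21 to 0.031 in Krt16 and -0.17 to 0.055 in Krt17. For siControl against no siRNA they were -0.11 to 0.77 in Krt5, -0.75 to 1.08 in Krt15, -0.13 to 0.64 in Krt6a, -0.16 to 0.59 in Krt6b and -0.38 to 0.075 in *Sbsn*. For siSbsn against no siRNA they were -0.13 to 0.59 in Krt5, -0.24 to 1.68 in Krt15, -0.045 to 0.58 in Krt6a, -0.28 to 0.49 in Krt6b, -0.0056 to 0.50 in Krt16 and -1.07 to 0.42 in *Sbsn*. For the interaction they were -0.38 to 0.41 in Krt5, -0.22 to 0.66 in Krt14, -1.04 to 0.15 in Krt15, -0.25 to 0.44 in Krt6a, -0.63 to 0.077 in Krt6b, -0.33 to 0.66 in Krt16 and -0.12 to 0.92 in Krt17. The ends of Krt14 and Krt17 named in the report were called. With 13 to 79 reads a library, depth limited Krt15.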
